A study of Mus musculus with 8 samples.

Results

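The 50 genes described here encode proteins that copy chromosomal DNA or that prepare a cell for S phase, the part of the cell cycle in which the genome is duplicated. They were taken by symbol from a list of gene names, and all 50 were found among the 25239 gene symbols counted in mouse cells. RNA was sequenced from 4 libraries labelled as knockout (KO) of Sphk2 driven by OSX and from 4 libraries labelled control, which came from littermates and are labelled WT. Sphk2 encodes a sphingosine kinase, and OSX, also called Sp7, is a factor needed for osteoblast formation. All 8 libraries were made from polyadenylated RNA of primary cells of the calvaria, the bony skull cap, labelled osteoblasts. The labels give no age, no sex and no number of animals per library, so each p-value rests on the variation seen among these libraries, some of which may be technical.

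Before S phase, the origin recognition complex with Cdc6 and Cdt1 loads the ring-shaped MCM helicase onto DNA. Cdc45, the GINS complex and Mcm10 then turn the loaded ring into a moving helicase, and the polymerases copy each strand behind it with the sliding clamp PCNA. Many of these genes are known targets of E2F transcription factors and are transcribed from late G1 into S phase, so in bulk RNA their level is commonly read as a mark of cycling cells. In bulk RNA, fewer cells of a type and less RNA per cell cannot be told apart.

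The libraries held 14347495 to 19065421 counts. Levels are given as CPM, counts scaled to a common library size with TMM factors, and the members had between 33 and 2696 counts in any library. Sphk2 stood at 69.7, 72.3, 72.1 and 131 CPM in the libraries labelled KO 1 to 4, against 75.8, 64.2, 82.5 and 134 CPM in controls 1 to 4. The log2 fold change was −0.05 (SE 0.30, edgeR adjusted p = 0.9999), so the Sphk2 count does not separate the libraries by label. Counts over a whole gene cannot show the loss of single exons, and the group names below are those of the labels.

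The libraries numbered 4 stood apart in both groups, and the first principal component, with 73.7% of the variance, separated them from the other 6. The 10 osteoclast markers (genes of bone-resorbing cells) summed to 6748 CPM in the library labelled KO 4 and 10222 CPM in control 4, against 176 to 189 CPM in KO 1 to 3 and 172 to 278 CPM in controls 1 to 3. The 16 osteoblast markers summed to 4419 to 16337 CPM in the libraries labelled KO and 6814 to 17351 CPM in controls. Col1a1, the main bone collagen gene, stood at 907 to 6050 CPM labelled KO and 1761 to 7205 CPM in controls. Of the markers of mature osteoblasts, Bglap stood at 42.3 CPM in KO 1 and at 0.582 CPM or less in the other 7 libraries, and Dmp1 at 13.7 CPM in KO 1 and 0.778 CPM or less in the others. The 16 macrophage and monocyte markers summed to more in every library, 32234 to 52885 CPM labelled KO and 31937 to 42027 CPM in controls. The neutrophil list reached 3.64 CPM at most. Hba-a1, Hba-a2, Hbb-bs, Hbb-bt, Cd3d and Tek had 0 counts in all libraries. The part of cell composition in the differences below was not tested.

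Most replication genes had higher mean levels in the libraries labelled KO than in controls, but no gene passed the edgeR test without pairing. Adjusted p-values below come from edgeR's quasi-likelihood test with Benjamini-Hochberg adjustment over all genes tested, unless another tool is named. Of the 50 members, 0 were called higher and 0 lower at an adjusted p under 0.05, against a background of 0% of the 12837 genes tested in either direction. The smallest edgeR adjusted p over all genes was 0.471, and limma-voom also called 0 members. At an unadjusted p under 0.05, 22 members were higher and 0 lower, against 3.19% of all genes higher and 1.72% lower. The log2 fold change (KO minus control) was above 0 for 48 of 50 members, against 46.7% of all genes. Its median was 0.42 over the members and −0.02 over all genes, and it ranged from −0.12 (Rpa3) to 1.21 (Mcm10). DESeq2 called 4 members higher, Clspn (adjusted p = 0.000133), Prim1 (0.00637), Mcm10 (0.0240) and Lig1 (0.0362), and 0 lower, against 0.958% and 0.374% of all genes.

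Libraries of the same number in both groups deviated together, so the number was also entered as a block, which makes each comparison one within a pair. With this block 5 members rose and 0 fell, against 1.31% and 1.18% of all genes. They were Clspn, Pole, Prim1, Pcna and Fen1. The calls depend on which libraries enter. Without number 1, 2 or 3 the block gave 0 members each time, and without number 4 it gave 36 higher and 0 lower, against 12.3% and 11.9% of all genes. In numbers 1 to 3 alone and without the block, 28 members rose and 0 fell, against 7.78% and 6.29% of all genes. All 50 fold changes were above 0, at a median of 0.53, against −0.005 over all genes. The 5 genes called with the block were among the 28, but the fit with the block holds these same libraries, so the calls are not independent.

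Pair by pair, the median difference of the members in log2 CPM was 0.56 in pair 1, 0.46 in pair 2, 0.49 in pair 3 and 0.14 in pair 4. The library labelled KO was the higher one for 49, 48, 46 and 34 of the 50 members in pairs 1 to 4. In pair 4, 52.3% of all genes were higher in the library labelled KO. In all 4 pairs 31 members were higher, against 15.4% of all genes, and in pairs 1 to 3 it was 44, against 27.4%. For 10 members every library labelled KO was above every control, and for 0 below, against 2.32% and 1.27% of all genes. These were Mcm7, Cdc6, Mcm10, Gins2, Gins3, Clspn, Prim1, Pole2, Lig1 and Tk1.

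Summed over the 50 genes, the level was 1334, 1552, 1440 and 1369 CPM in the libraries labelled KO 1 to 4, against 853, 1077, 963 and 1284 CPM in controls 1 to 4. Every sum labelled KO lay above every control sum, and control 4 came closest. The means were 1424 ± 96.5 CPM labelled KO and 1044 ± 184 CPM in controls (SD, n = 4 each).

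**Figure D1:**
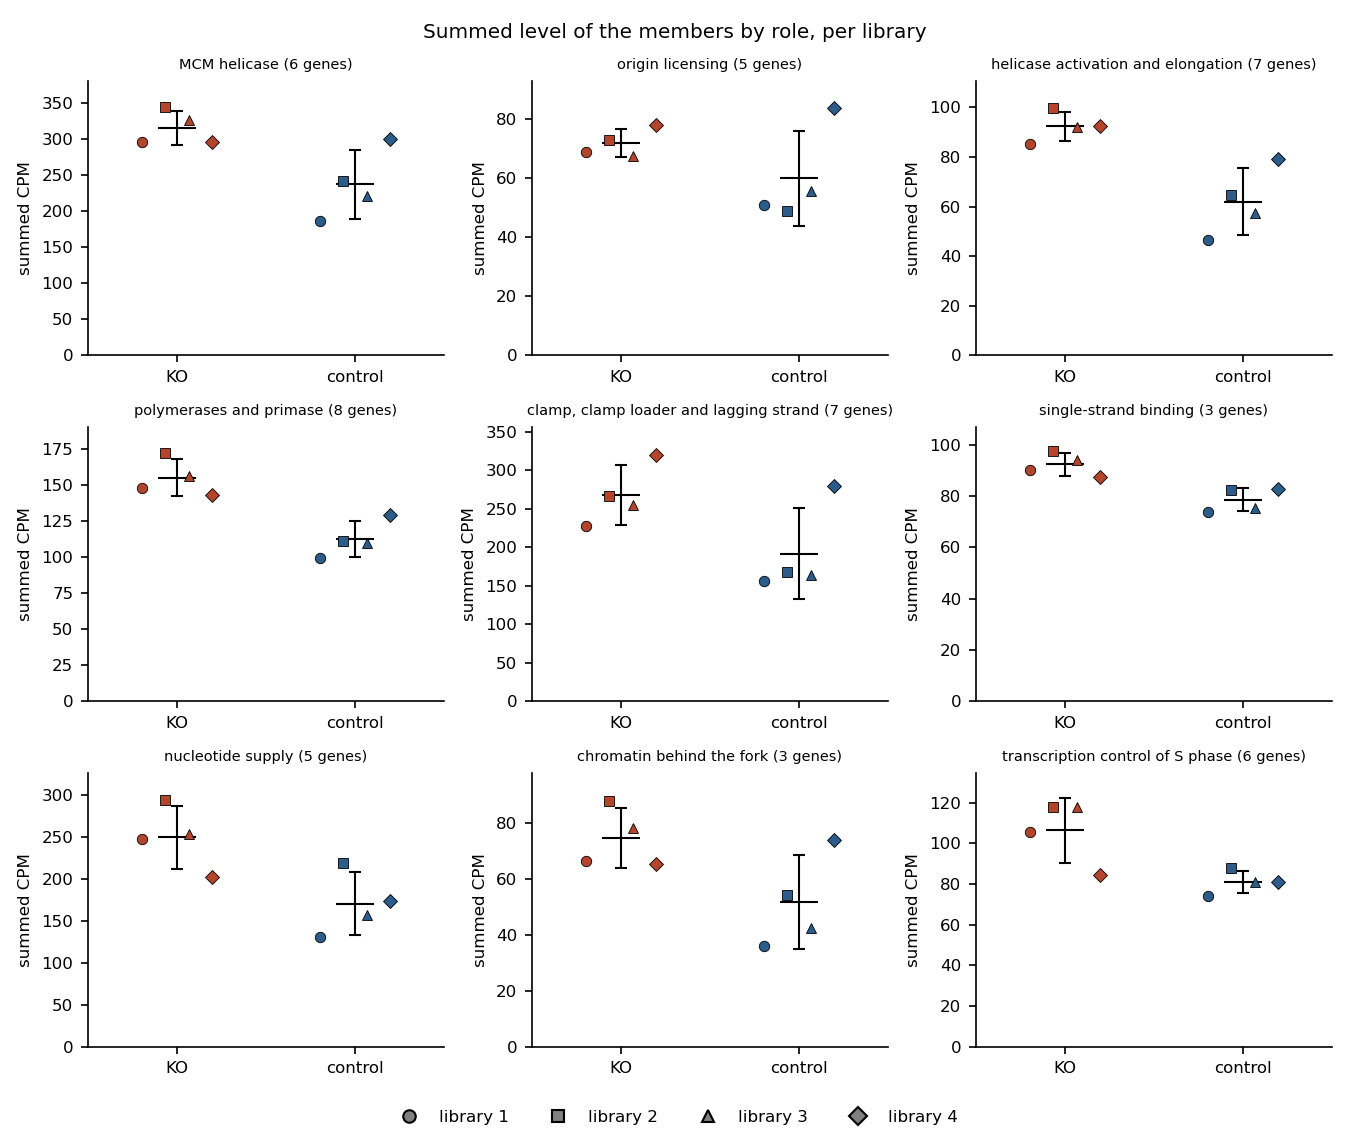
Summed CPM of the members of each role group (y axes, linear from 0) in libraries labelled KO (left, red) and control (right, blue), with the library number given by the symbol and the mean and SD (n = 4) by bars. In libraries 1 to 3 every KO sum is above its same-numbered control, while KO 4 (diamond) is below control 4 in 3 panels: 295 against 300.3 CPM for the MCM helicase, 77.9 against 83.7 CPM for origin licensing and 65.3 against 74.0 CPM for chromatin behind the fork.

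Upstream sequences are shown for 5 members because they differ in whether they hold the letters known from E2F sites. Each is the 250 bases before the RefSeq start on GRCm38.p6, 5′ to 3′ on the strand of the gene. Capitals mark either of the searched motifs on either strand: the 8-letter E2F forms TTTCCCGC, TTTGGCGC, TTTCGCGC and TTTGCCGC, and CCAAT, the letters bound by NF-Y. Matches that overlap, as in Mcm5 and Mcm6, run together. Mcm5 is at chr8:75109259-75109508 (+), Mcm6 at chr1:128359706-128359955 (−), Pola1 at chrX:93632156-93632405 (−), Mcm10 at chr2:5012792-5013041 (−) and E2f8 at chr7:48881597-48881846 (−).
Mcm5: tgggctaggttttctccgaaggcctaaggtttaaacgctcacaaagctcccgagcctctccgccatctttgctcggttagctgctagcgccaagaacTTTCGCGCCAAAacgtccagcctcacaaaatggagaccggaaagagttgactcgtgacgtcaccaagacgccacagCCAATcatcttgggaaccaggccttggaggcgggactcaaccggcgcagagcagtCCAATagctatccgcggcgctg
Mcm6: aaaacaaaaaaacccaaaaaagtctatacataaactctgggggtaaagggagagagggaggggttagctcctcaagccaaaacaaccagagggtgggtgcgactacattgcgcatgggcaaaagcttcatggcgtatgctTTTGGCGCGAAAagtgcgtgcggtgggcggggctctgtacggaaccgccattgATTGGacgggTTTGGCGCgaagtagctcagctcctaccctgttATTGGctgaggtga
Pola1: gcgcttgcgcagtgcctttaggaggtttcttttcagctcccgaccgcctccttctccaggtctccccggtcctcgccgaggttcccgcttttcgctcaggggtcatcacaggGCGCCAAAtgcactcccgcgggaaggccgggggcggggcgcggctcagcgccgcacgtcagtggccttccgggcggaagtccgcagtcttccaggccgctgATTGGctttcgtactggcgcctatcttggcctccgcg
Mcm10: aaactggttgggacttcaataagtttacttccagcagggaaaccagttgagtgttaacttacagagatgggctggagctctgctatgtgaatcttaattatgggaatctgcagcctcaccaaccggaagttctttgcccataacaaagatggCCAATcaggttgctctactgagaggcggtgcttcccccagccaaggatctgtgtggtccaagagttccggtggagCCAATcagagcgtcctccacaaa
E2f8: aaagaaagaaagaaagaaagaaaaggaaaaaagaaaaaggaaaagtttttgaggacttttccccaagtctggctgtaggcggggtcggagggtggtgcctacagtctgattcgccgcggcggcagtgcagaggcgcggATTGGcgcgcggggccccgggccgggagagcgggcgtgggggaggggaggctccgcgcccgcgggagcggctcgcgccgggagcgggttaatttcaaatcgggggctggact

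In these windows Mcm5 has 2 E2F matches, Mcm6 has 3 and Pola1 has 1, while Mcm10 and E2f8, among the members with the highest fold changes, have none. Clspn, with a log2 fold change of 1.12, has E2F letters at base 22 after its start, so only in the longer window used next. RefSeq promoter windows, from 250 bases before to 50 after the start, were available for 41 members (48 windows). E2F letters lay in 17 of 48 member windows (35.4%), against 744 of 32851 windows of all genes (2.26%) and 505 of 13034 windows of genes tested (3.87%). CCAAT lay in 29 of 48 member windows (60.4%), against 37.4% of all windows and 37.5% of those of genes tested. The median log2 fold change was 0.43 for the 17 members with E2F letters and 0.42 for the 24 without. In numbers 1 to 3 without the block, 11 of the 17 and 11 of the 24 were called, against 7.78% of all genes higher. With the block over all 8 libraries, 1 of the 17 and 3 of the 24 were called, against 1.31% of all genes higher. These differences were not tested. A match is a string of letters and not a measured binding site, and a window without one says nothing of the factor.

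The 6 MCM subunits form 1 ring, and all 6 had log2 fold changes above 0, from 0.26 (Mcm2, Mcm6) to 0.67 (Mcm5), with a median of 0.41. Mcm2 ranged from 29.6 to 43.9 CPM labelled KO and 27.8 to 37.2 CPM in controls, Mcm5 from 42.0 to 49.4 and 17.6 to 43.9 CPM, and Mcm7 from 51.2 to 57.6 and 29.7 to 50.8 CPM. None passed with or without the block. In numbers 1 to 3 alone without the block 5 of 6 passed, against 7.78% of all genes called higher, the exception being Mcm2 (edgeR adjusted p = 0.0965). Mcm3 stood at 56.1, 59.1, 60.8 and 64.6 CPM labelled KO, against 33.1, 37.2, 36.8 and 59.5 CPM in controls. Its libraries labelled KO were close together, and only control 4 reached into their range. Its log2 fold change was 0.53 (SE 0.19, adjusted p = 0.837), and 0.57 (SE 0.12, adjusted p = 0.0633) with the block. Mcm4 stood at 46.2, 55.2, 51.3 and 36.5 CPM labelled KO and at 31.1, 41.8, 33.7 and 34.9 CPM in controls, where KO 4 was the low library and lay below control 2. Mcm6 stood at 64.2, 78.5, 73.9 and 68.9 CPM labelled KO and at 47.4, 57.5, 52.9 and 80.3 CPM in controls. For Mcm6 control 4 was the highest of all 8 libraries, and its pair was the 1 with a lower KO-labelled value (−0.22 in log2 CPM, against 0.44, 0.45 and 0.48 in pairs 1 to 3). Per kilobase of transcript, mean levels labelled KO ran from 11.1 for Mcm2 to 24.5 for Mcm6, against 9.26 for Mcm2 and 20.5 for Mcm6 in controls. In controls Mcm5 had the lowest level per kilobase of the 6, at 8.29, against 13.2 labelled KO.

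Of the 5 genes of origin licensing, all had log2 fold changes above 0 and none passed with or without the block. Cdc6, the loader of the MCM ring, stood at 8.19, 11.4, 7.33 and 7.28 CPM labelled KO, against 3.70, 6.07, 5.59 and 6.64 CPM in controls. The groups did not overlap, and the log2 fold change was 0.64 (SE 0.25, adjusted p = 0.926; with the block 0.65, SE 0.20, adjusted p = 0.136). Cdt1, which loads the ring together with Cdc6, stood at 25.9, 28.6, 29.6 and 25.7 CPM labelled KO and at 20.7, 20.1, 22.1 and 34.3 CPM in controls. Control 4 was the highest library, and pairs 1 to 3 differed by 0.32, 0.51 and 0.42 in log2 CPM while pair 4 differed by −0.42. Orc1, the large subunit of the origin recognition complex, was the lowest of all 50 members per kilobase, at 1.37 CPM labelled KO and 1.07 CPM in controls. It stood at 4.47, 5.27, 3.72 and 3.06 CPM labelled KO, against 3.44, 3.20, 3.96 and 2.31 CPM in controls, and the groups overlapped. Gmnn, the inhibitor of Cdt1, ranged from 16.1 to 27.5 CPM labelled KO and 11.6 to 26.3 CPM in controls (0.25, SE 0.29). Orc6, another origin recognition subunit, ranged from 9.80 to 14.3 and 7.83 to 14.1 CPM (0.22, SE 0.24).

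The genes that activate and accompany the helicase held the largest fold changes of the 50. Clspn (claspin, a fork protein that also relays the checkpoint signal to Chk1) lies at chr4:126556935-126593903 (+) in GRCm38. It stood at 23.9, 28.5, 23.9 and 18.8 CPM labelled KO, against 8.84, 13.4, 9.20 and 12.3 CPM in controls. Every library labelled KO lay above every control, in number 4 as well as in the others. Clspn rose with the block (log2 fold change 1.13, SE 0.15, adjusted p = 0.0384) and in numbers 1 to 3 (1.28, adjusted p = 0.00189), and without the block it was 1.12 (SE 0.20, adjusted p = 0.471). Mcm10, which helps to fire the loaded helicase, stood at 13.1, 18.2, 15.3 and 12.9 CPM labelled KO, against 3.28, 7.08, 5.94 and 9.51 CPM in controls. The groups did not overlap, and the pairs differed by 1.96, 1.35, 1.35 and 0.43 in log2 CPM. Its fold change was the highest of the members at 1.21 (SE 0.31, adjusted p = 0.514), and with the block it was 1.28 (SE 0.24, adjusted p = 0.0579).

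The 4 GINS subunits travel with the helicase as 1 complex, and their fold changes ran from near 0 to 0.64. Gins4 stood at 19.8, 22.2, 19.2 and 27.2 CPM labelled KO, against 17.9, 20.2, 21.7 and 27.9 CPM in controls, so the groups overlapped fully. Its log2 fold change was 0.01, and with the block the 95% interval was −0.20 to 0.23. Gins1, Gins2 and Gins3 had log2 fold changes of 0.64, 0.47 and 0.43, with 95% intervals with the block of 0.11 to 1.22, 0.16 to 0.83 and 0.08 to 0.77. They ranged from 4.01 to 5.06, 11.04 to 13.2 and 4.89 to 6.63 CPM labelled KO, against 2.49 to 4.13, 6.35 to 10.98 and 3.81 to 4.75 CPM in controls. The groups did not overlap for Gins2 and Gins3, though KO 1 and control 4 were nearly equal for Gins2, of whose exon bases 2758 overlap Gse1 on the other strand. The difference between Gins4 and the other subunits was not tested. Cdc45, the other partner of the active helicase, ranged from 7.82 to 10.9 CPM labelled KO and 3.92 to 9.51 CPM in controls (0.45, SE 0.30).

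Among the 8 genes of polymerases and primase all fold changes were above 0, and 2 rose with the block, against 1.31% of all genes. Prim1, the catalytic subunit of primase, lies at chr10:128015168-128030037 (+). It stood at 8.81, 9.56, 9.34 and 7.79 CPM labelled KO, against 4.50, 5.73, 6.29 and 4.48 CPM in controls. The groups did not overlap, and pair 4 differed by 0.78 in log2 CPM, within the range of pairs 1 to 3 (0.95, 0.73 and 0.56). With the block its log2 fold change was 0.77 (SE 0.13, adjusted p = 0.0451), and without it 0.76 (SE 0.19, adjusted p = 0.510). Pole, the catalytic subunit of the leading-strand polymerase epsilon, lies at chr5:110286306-110337474 (+). It stood at 24.4, 34.8, 27.9 and 15.3 CPM labelled KO, against 11.7, 17.99, 13.8 and 11.3 CPM in controls. KO 4 was the low library of its group and lay below control 2, so the groups overlapped. Pole rose with the block (0.88, SE 0.12, adjusted p = 0.0385), where its SE was smaller than without it (0.90, SE 0.27, adjusted p = 0.648).

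Catalytic and accessory subunits of the same polymerase can be set side by side, and their difference was not tested. Pola1, the catalytic subunit of polymerase alpha, had a log2 fold change of 0.86 (SE 0.27) and Pola2, its accessory subunit, one of 0.26 (SE 0.21). The Pola1 to Pola2 ratio of CPM was 1.52, 1.33, 1.49 and 0.442 labelled KO, against 0.921, 0.919, 0.839 and 0.442 in controls. It was higher in KO 1 to 3 than in controls 1 to 3 and alike in both libraries numbered 4, where KO 4 (13.4 CPM) was the low library for Pola1, the other KO libraries standing at 29.9 to 31.7 CPM and the controls at 12.0 to 16.0 CPM. The Pole to Pole2 ratio was 2.79, 4.22, 3.04 and 1.64 labelled KO, against 1.66, 2.52, 2.08 and 1.44 in controls, higher labelled KO in each pair. The Prim1 to Prim2 ratio was 0.488, 0.529, 0.503 and 0.557 labelled KO, against 0.427, 0.421, 0.584 and 0.271 in controls, lower labelled KO in pair 3. The Pold1 to Pold2 ratio was 2.43, 2.64, 2.62 and 2.45 labelled KO, against 2.83, 2.63, 2.83 and 1.87 in controls. It was lower labelled KO in pairs 1 and 3, nearly equal in pair 2 and higher in pair 4, so not every catalytic subunit stood higher relative to its partner. Pold1, the catalytic subunit of polymerase delta, stood at 26.1, 33.3, 29.8 and 37.7 CPM labelled KO and at 24.4, 24.1, 29.5 and 32.7 CPM in controls. The Pold1 groups overlapped, and its log2 fold change was 0.20 (SE 0.16), with 0.13 (SE 0.26) for Pold2. Prim2, the large primase subunit, ranged from 14.0 to 18.6 CPM labelled KO and 10.5 to 16.5 CPM in controls (0.42, SE 0.19). Pole2, the second subunit of polymerase epsilon, did not overlap between groups, at 8.26 to 9.32 and 6.64 to 7.83 CPM (0.31, SE 0.14).

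**Figure D2:**
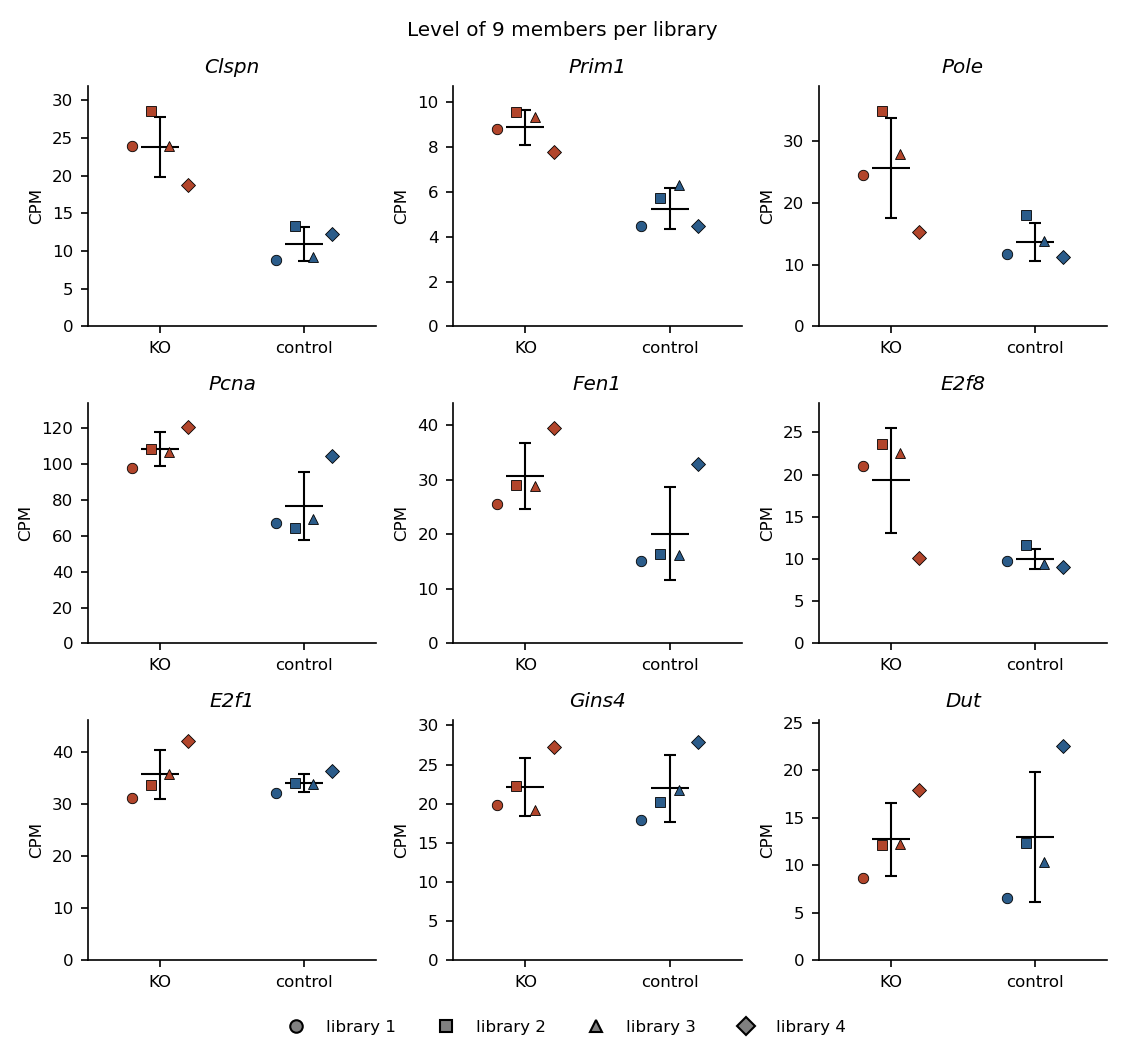
CPM of 9 members (1 panel each, y axes linear from 0) in libraries labelled KO (left, red) and control (right, blue), with symbols for the library number and bars for the mean and SD (n = 4). Clspn and Prim1 do not overlap between groups, KO 4 lies at 10.1 CPM beside the controls for E2f8, and E2f1, Gins4 and Dut overlap.

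The sliding clamp, its loader and the lagging-strand enzymes gave 2 further genes that rose with the block, against 1.31% of all genes. Pcna, the clamp that tethers polymerases to DNA, lies at chr2:132249162-132253314 (−) and was the highest member per kilobase, at 71.5 CPM labelled KO and 50.3 CPM in controls. It stood at 98.0, 108, 107 and 121 CPM labelled KO, against 67.2, 64.5, 69.1 and 105 CPM in controls. Control 4 alone reached the range of the libraries labelled KO, where it lay above KO 1. With the block its log2 fold change was 0.53 (SE 0.09, adjusted p = 0.0460), and without it 0.51 (SE 0.17, adjusted p = 0.785). The annotation names the pseudogenes Pcna-ps1 and Pcna-ps2, and the sources used here do not say how reads shared with them were counted.

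Fen1, the flap endonuclease that trims Okazaki fragments, lies at chr19:10199132-10204169 (−). It stood at 25.6, 29.0, 28.8 and 39.4 CPM labelled KO, against 15.1, 16.4, 16.2 and 32.8 CPM in controls. Number 4 was the highest library of each group, and control 4 lay above KO 1 to 3. With the block the log2 fold change was 0.67 (SE 0.12, adjusted p = 0.0463), and without it 0.61 (SE 0.28, adjusted p = 0.9999). Of the 2422 exon bases of Fen1, 2039 overlap Tmem258 or Gm10143 on the other strand, and without a statement on strand use in counting, reads of these genes cannot be told apart.

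Lig1, the ligase that joins the trimmed fragments, stood at 39.7, 53.4, 47.3 and 40.4 CPM labelled KO, against 24.7, 29.9, 25.3 and 36.2 CPM in controls. The groups did not overlap, at a log2 fold change of 0.64 (SE 0.17, adjusted p = 0.514; with the block 0.65, SE 0.13, adjusted p = 0.0604). Of the clamp loader subunits, Rfc5 had a log2 fold change of 0.53, Rfc2 of 0.29, Rfc4 of 0.27 and Rfc3 of 0.19. All 4 stood highest in number 4 of both groups, for example Rfc2 at 65.0 CPM in KO 4 and 58.1 CPM in control 4, against 32.8 to 37.5 CPM in KO 1 to 3 and 24.3 to 31.3 CPM in controls 1 to 3. Of the 6303 exon bases of Rfc2, 952 overlap Lat2 on the other strand. Rfc5 overlaps Wsb2 by 499 bases and Rfc4 overlaps Eif4a2 by 194 in the same way.

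RPA, which coats single-stranded DNA, has 3 subunits. Rpa1, the large subunit, stood at 70.5, 79.2, 75.3 and 66.9 CPM labelled KO and at 61.5, 67.2, 61.4 and 60.4 CPM in controls, where KO 4 lay just below control 2. Its log2 fold change was 0.22 (SE 0.10), and with the block 0.22 (SE 0.05, adjusted p = 0.0847). Rpa2 stood at 15.6, 13.3, 14.5 and 14.6 CPM labelled KO, against 8.63, 10.2, 9.03 and 14.6 CPM in controls, so KO 4 and control 4 had the same level and the other pairs did not. Rpa3 was the member with the lowest fold change, at −0.12 (SE 0.26), and stood at 4.09, 5.33, 4.17 and 5.90 CPM labelled KO and 3.81, 4.83, 4.95 and 7.55 CPM in controls. Its groups overlapped, and in numbers 1 to 3 alone the log2 fold change was 0.01.

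Nucleotide supply was led by ribonucleotide reductase, which makes deoxynucleotides. Rrm1, its large subunit and the member with the highest CPM, stood at 129, 146, 131 and 97.8 CPM labelled KO, against 58.3, 106, 74.5 and 84.5 CPM in controls. KO 4 was the low library of its group and lay below control 2, at a log2 fold change of 0.64 (SE 0.20, adjusted p = 0.724), and with the block 0.66 (SE 0.16, adjusted p = 0.0948). Tk1, the thymidine kinase of S phase, stood at 32.8, 37.4, 31.8 and 33.1 CPM labelled KO, against 15.9, 19.2, 14.4 and 28.7 CPM in controls. The groups did not overlap, at 0.79 (SE 0.22, adjusted p = 0.572; with the block 0.84, SE 0.17, adjusted p = 0.0599). Dut, which removes dUTP, stood at 8.68, 12.1, 12.2 and 17.9 CPM labelled KO and at 6.56, 12.4, 10.3 and 22.6 CPM in controls. Its groups overlapped, and its log2 fold change was −0.02 (SE 0.39) without and 0.06 (SE 0.14) with the block, so its sign is not set. Tyms, the thymidylate synthase, ranged from 10.1 to 13.3 CPM labelled KO and 5.66 to 10.5 CPM in controls (0.60, SE 0.25). Rrm2, the small reductase subunit, ranged from 43.8 to 84.4 and 28.0 to 72.2 CPM (0.39, SE 0.30).

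Of the genes that act on chromatin behind the fork, Uhrf1, which reads hemimethylated DNA and recruits the maintenance methyltransferase, stood at 32.8, 46.1, 40.3 and 29.1 CPM labelled KO, against 14.7, 25.1, 18.3 and 30.7 CPM in controls. KO 1 to 3 lay above all controls, and in pair 4 control was the higher library. Over all 8 libraries the change was 0.74 (SE 0.26, adjusted p = 0.803), and in numbers 1 to 3 Uhrf1 rose (1.04, adjusted p = 0.0241). Chaf1a, the large subunit of the histone chaperone CAF-1, stood at 23.3, 27.0, 27.3 and 25.7 CPM labelled KO, against 13.6, 18.8, 15.5 and 25.3 CPM in controls. Control 4 lay above KO 1, at a log2 fold change of 0.50 (SE 0.20), and 4648 of its 8854 exon bases overlap Ubxn6 on the other strand. Chaf1b, another CAF-1 subunit, had 0.06 (SE 0.30), with control 4 at 18.04 CPM above all other libraries.

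At the G1/S boundary, the 6 transcription factors and cyclins had log2 fold changes from 0.07 to 0.95. E2f8, an atypical E2F that represses E2F targets, stood at 21.03, 23.6, 22.6 and 10.1 CPM labelled KO, against 9.74, 11.7, 9.38 and 9.09 CPM in controls. KO 1 to 3 lay well above every control and KO 4 among them. The log2 fold change was 0.95 (SE 0.27, adjusted p = 0.572; with the block 0.91, SE 0.19, adjusted p = 0.0636), and it rose in numbers 1 to 3 (1.13, adjusted p = 0.000592). E2f1, an activating E2F, stood at 31.1, 33.6, 35.7 and 42.1 CPM labelled KO, against 32.1, 34.0, 33.7 and 36.3 CPM in controls. The groups overlapped at 0.07 (SE 0.12), and with the block the 95% interval was −0.11 to 0.23. The E2f8 to E2f1 ratio of CPM was 0.675, 0.701, 0.632 and 0.240 labelled KO, against 0.304, 0.344, 0.278 and 0.250 in controls. E2f2, also an activator, stood at 27.0, 24.8, 30.9 and 13.5 CPM labelled KO, against 13.9, 11.6, 14.3 and 18.7 CPM in controls, so pair 4 ran the other way (−0.47 in log2 CPM). E2f2 rose in numbers 1 to 3 (1.06, adjusted p = 0.000743) and was 0.72 (SE 0.27, adjusted p = 0.897) over all 8. E2f7, the other atypical E2F, ranged from 3.86 to 15.8 CPM labelled KO and 2.59 to 13.2 CPM in controls (0.35, SE 0.54). The cyclin E genes Ccne1 and Ccne2, partners of Cdk2, ranged from 10.1 to 13.2 and 4.15 to 7.12 CPM labelled KO and from 7.78 to 11.5 and 3.01 to 6.86 CPM in controls, with 0.27 (SE 0.18) and 0.24 (SE 0.32).

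**Figure D3:**
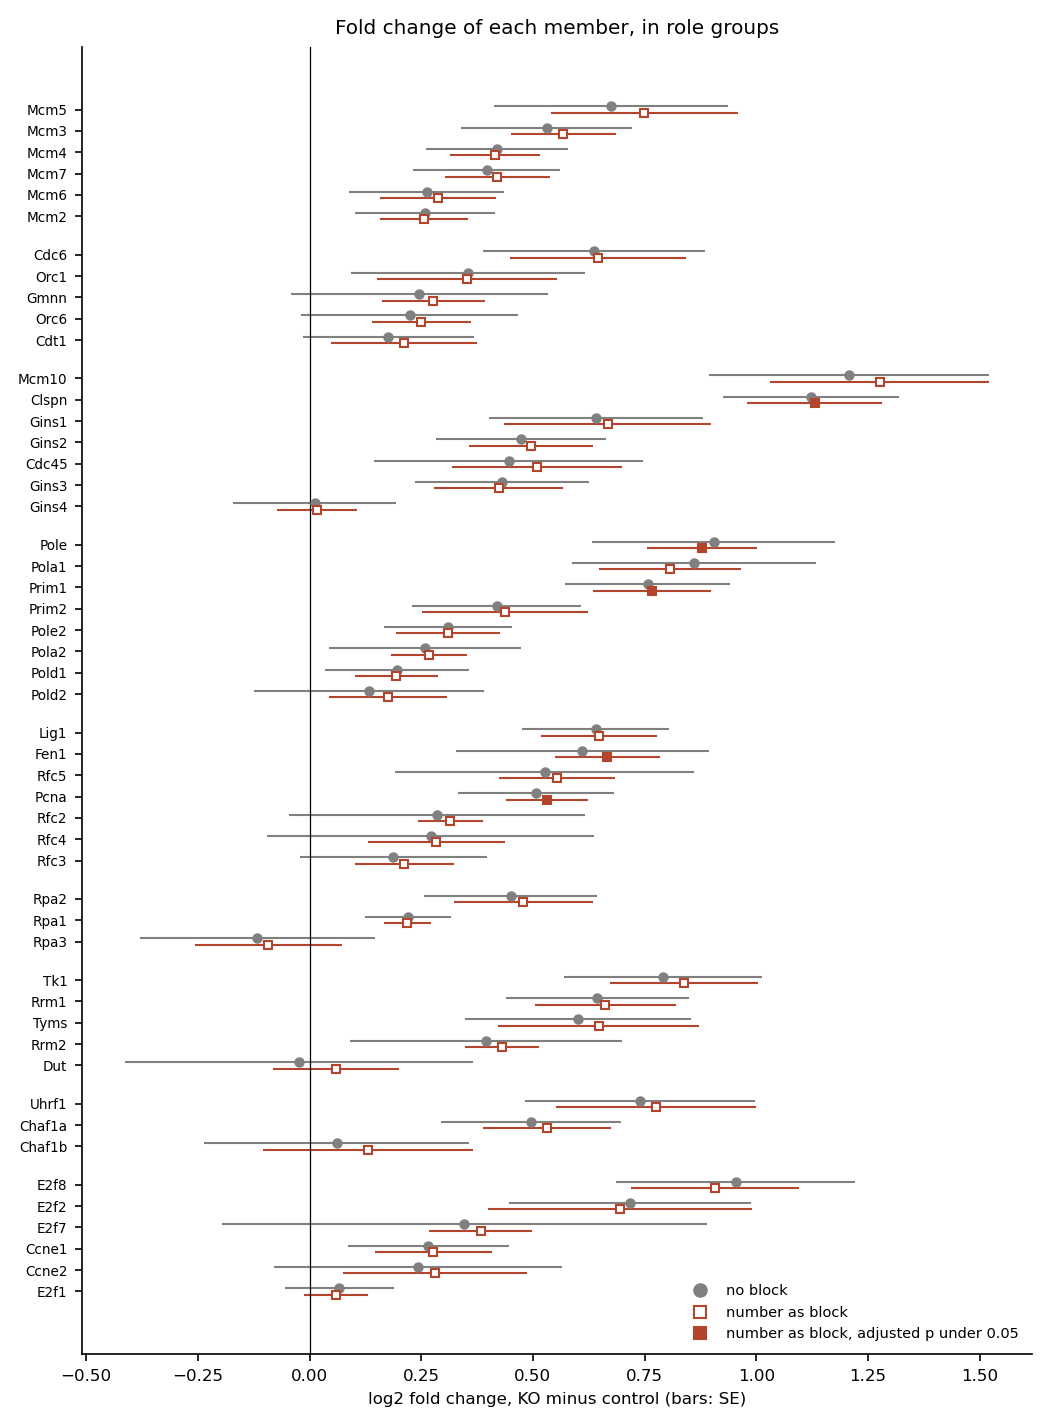
Log2 fold change of each of the 50 members (x axis, KO minus control, bars give the SE) without pairing (grey circles) and with the library number as block (red squares, filled where the adjusted p is under 0.05), ordered by role group. The 5 filled squares are Clspn, Pole, Prim1, Pcna and Fen1, and Rpa3 and Dut are the only members below 0 without pairing.

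The libraries numbered 4 did not shift all members the same way. Control 4 lay above controls 1 to 3 for 37 members and below them for 9, while KO 4 lay above KO 1 to 3 for 19 and below them for 21. Both number 4 libraries were above the rest of their group for 19 members, among them Pcna, Fen1 and the 4 Rfc genes. Both were below for 9, which were Orc1, Pola1, Prim1, Pole, Rpa1, Rrm2, E2f7, E2f8 and Ccne2. For 8 members KO 4 was the lowest of its group and control 4 the highest. Both libraries numbered 4 also held the high osteoclast marker sums given above, and the part of those cells in these places was not tested.

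**Figure D4:**
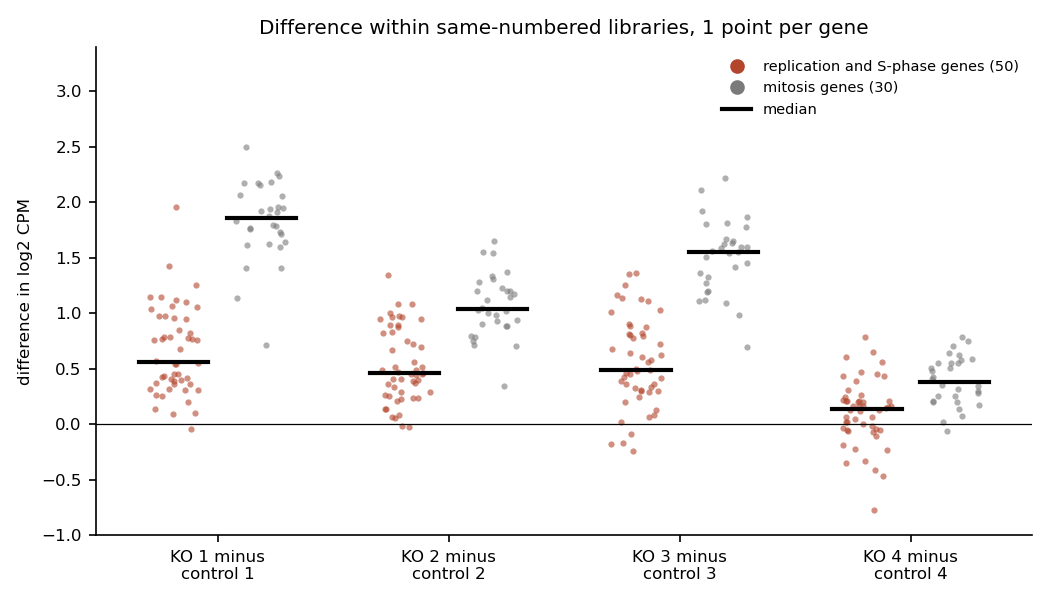
Difference in log2 CPM between the library labelled KO and the same-numbered control (y axis), 1 point per gene, for the 50 replication and S-phase genes (red) and 30 mitosis genes (grey), with black bars for medians. The medians of the replication genes are 0.56, 0.46, 0.49 and 0.14 in pairs 1 to 4, below those of the mitosis genes in each pair.

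Genes of the same pathway outside the list were read from 3 further lists. Of all genes tested, 46.7% had fold changes above 0, and 1.31% rose and 1.18% fell with the block. Of 50 other replication and S-phase genes, 40 had fold changes above 0 with a median of 0.31, and 4 rose and 0 fell with the block (Dbf4, Atad5, Dnmt1 and Usp1). Dbf4, the activator of the Cdc7 kinase that fires origins, stood at 37.7, 40.6, 39.8 and 25.7 CPM labelled KO, against 19.6, 23.6, 19.4 and 20.3 CPM in controls. Its groups did not overlap (0.78 with the block, SE 0.12, adjusted p = 0.0412). Asf1b, a histone chaperone, did not overlap either, at 19.96 to 27.5 CPM labelled KO and 9.37 to 18.2 CPM in controls (1.04, SE 0.24, adjusted p = 0.483). Of 25 genes of G1 and cell-cycle exit, 17 were above 0 with a median of 0.08, and Rbl1 alone rose with the block. There Cdkn2c, an inhibitor of Cdk4 and Cdk6, stood at 40.2 to 48.9 CPM labelled KO and 10.8 to 29.2 CPM in controls (1.33, SE 0.29, adjusted p = 0.471), and Foxm1, an activator of mitotic genes, at 31.2 to 61.0 and 16.8 to 31.3 CPM (1.01, SE 0.26, adjusted p = 0.510).

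Genes of mitosis act after replication. All 30 were above 0, against 46.7% of all genes, and the median was 1.11, against 0.42 for the members. With the block 6 rose (Aurkb, Kif23, Prc1, Incenp, Ect2 and Ncaph), against 1.31% of all genes. Mki67, the proliferation marker Ki-67, stood at 451, 477, 451 and 189 CPM labelled KO, against 99.6, 162, 119 and 129 CPM in controls. Its groups did not overlap (1.62, SE 0.31, adjusted p = 0.471; with the block 1.56, SE 0.29, adjusted p = 0.0633). Incenp, of the chromosomal passenger complex, rose with the block (0.67, SE 0.06, adjusted p = 0.0296), as did the condensin gene Ncaph (1.06, SE 0.16, adjusted p = 0.0408).

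The summed CPM of the 30 mitosis genes was 1952, 2218, 2069 and 1379 labelled KO, against 570.3, 1048, 737 and 1046 in controls. The ratio of the replication sum to the mitosis sum was 0.684, 0.700, 0.696 and 0.992 labelled KO, against 1.496, 1.03, 1.31 and 1.23 in controls. It was lower in every library labelled KO than in every control, and closest between KO 4 and control 2. These sums share libraries and scaling and weigh abundant genes such as Mki67 most, and the ratio was not tested.

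**Figure D5:**
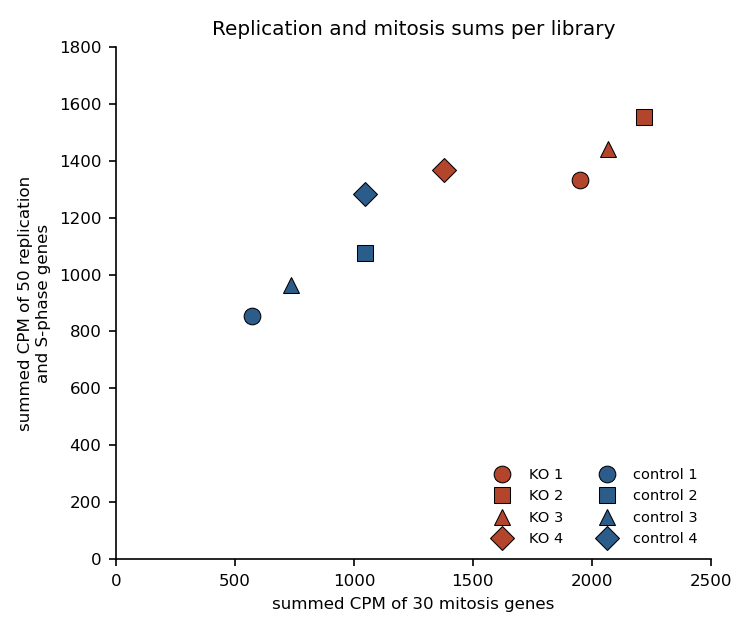
Summed CPM of the 50 replication and S-phase genes (y axis) against summed CPM of 30 mitosis genes (x axis), 1 point per library, red for libraries labelled KO and blue for control, with symbols for the library number. KO 1 to 3 lie at 1952 to 2218 CPM of mitosis genes, KO 4 at 1379, and the controls at 570.3 to 1048.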

How the data were processed

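Whole-number counts per gene symbol, deposited by the authors, were used for all 8 libraries. The submitters' processing notes name the tools STAR 2.7.11b and featureCounts 2 and the genome build GRCm38 (mm10), without roles. The gene annotation, strand use and treatment of multiply aligned reads are not given in the sources used here. Library totals ran from 14347495 to 19065421 counts. Groups and numbers came from the sample titles.

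The filterByExpr filter on low counts left 12837 genes. The comparison was made with the edgeR 4.0.16 quasi-likelihood test (robust) in R 4.3.3 after TMM scaling, with Benjamini-Hochberg adjustment over all genes tested and a threshold of 0.05. CPM were computed from the counts in genes tested, with a prior count of 2 for log2 CPM. Alternatives were DESeq2 1.42.0, limma-voom 3.58.1, other scalings, no filter, libraries left out and the library number as a block. The code was tested on simulated counts.

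Within groups, libraries differed beyond sampling noise (chi-square per degree of freedom 8.56 to 307). After removal of group means, libraries of equal number had correlations across genes of 0.460, 0.724, 0.665 and 0.829. Each exceeded 0.1, the limit set for treating equal numbers as pairs, and no label states such pairing. Unlike numbers among 1 to 3 also correlated (0.416 to 0.572). In numbers 1 to 3 alone, same numbers gave 0.161, 0.290 and 0.376 and unlike numbers −0.255 to −0.0234.

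Coordinates and transcript lengths (APPRIS principal transcript) came from GENCODE M21 on GRCm38, where 24321 symbols and all 50 members matched 1 gene, and promoter windows from RefSeq on GRCm38.p6. Of the members, 16 overlap an exon on the other strand. The members with values in every library were, in each role group, the highest by mean CPM and the 2 with the smallest unadjusted p, those called with the block and those with a negative fold change. Sphk2, Mki67 and the 2 smallest p of each comparison list were also named by the rule. The members, lists and the separation of number 4 were chosen with earlier results of these data known.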

Additional observations from a re-analysis of the deposited data

Results flagged for a closer look

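The 4 libraries of each group were checked, for each of the 50 members and for their summed CPM, for 1 value far from the other 3, by the gap to the nearest value over the whole range. Of 102 groups checked, 15 held such a value. Chance flags about 1 in 20 groups where groups are independent. These groups share the same 8 libraries, so the count was not tested against that rate. Of the 15 values, 4 belong to KO 4 and 9 to control 4.

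Among libraries labelled KO, KO 4 was low for Pola1 (13.4 CPM, the others 29.9 to 31.7) and Prim2 (14.0 CPM, the others 18.1 to 18.6). It was high for Rfc2 (65.0 CPM) and Rfc3 (14.8 CPM). KO 2 was high for Chaf1b, at 14.8 CPM against 10.4 to 10.7.

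Among controls, control 4 was high for all 9 genes: Mcm3 (59.5 CPM), Orc6 (14.1), Cdt1 (34.3), Gins1 (4.13), Pola2 (27.1), Pcna (105), Rfc3 (15.4), Rfc5 (24.1) and Fen1 (32.8). For Fen1 the other controls stood at 15.1 to 16.4 CPM, and for Pcna at 64.5 to 69.1 CPM. Control 2 was high for Rpa1, at 67.2 CPM against 60.4 to 61.5.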

How the results depend on the processing

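The median log2 fold change of the members stayed above 0 in each setting tried, between 0.35 and 0.58. No scaling moved the median of all genes by 0.1. Other scalings, no filter and limma-voom left 0 members called. Counts of members higher were 4 with DESeq2 (123 genes higher and 48 lower in all), 5 with the replicate block (168 and 151), and 28 in numbers 1 to 3 without the block (1005 and 812). Leaving out 1 library without the block gave 0 to 2 members, 0 to 25 genes higher and 0 to 13 lower. The 2 members were Pola1 and E2f8 without KO 4 (17 genes higher and 7 lower), and Mcm3 and Tk1 without control 4 (25 and 13). Leaving out 1 number with the block gave 0 to 36 members, 0 to 1593 genes higher and 0 to 1539 lower, with 36 members only without number 4. No setting called a member lower.

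Some fold changes near 0 changed sign. Sphk2 ran from −0.32 to 0.21 with 1 library left out and from −0.11 to 0.0052 with the block. Without the block and with 1 library left out, Gins4 ran from −0.10 to 0.14, Rfc4 from −0.026 to 0.60, Rpa3 from −0.25 to 0.10, Dut from −0.24 to 0.38, Chaf1b from −0.086 to 0.39 and E2f1 from −0.021 to 0.13. With the block and 1 number left out, Gins4 ran from −0.026 (without number 1; −0.017 without number 2) to 0.080, Rpa3 from −0.16 to 0.0015 and Dut from −0.04 to 0.20. Rpa3 was 0.0052 in numbers 1 to 3, and Dut 0.10 with limma-voom, 0.060 with the block and 0.18 in numbers 1 to 3. The causes were not tested. With 4 libraries a group, the median SE of a member was 0.23 without and 0.14 with the block. An SE is not a limit of detection, and changes well above it also went uncalled. Without the block Clspn, at 1.12 (SE 0.20), had an edgeR adjusted p of 0.471.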
